A study of Mus musculus with 4 samples.

Results

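A set of 9 genes that act in meiotic crossover formation was described in juvenile mouse testis labelled Znhit1_KO and in controls. They were chosen by name, as those rows of the deposited count table that carry the symbols Msh4, Msh5, Mlh3, Rnf212, Ccnb1ip1, Hfm1, Tex11, Shoc1 and Cntd1, which gave 9 of 55335 genes, and all 9 passed the filter that left 24116 genes for testing. Poly(A) RNA of testes taken at postnatal day 14 was sequenced in 2 libraries with the genotype label Znhit1_KO and 2 with the genotype label CTRL. The ZNHIT1 protein belongs to SRCAP, a remodeller that loads nucleosomes with H2A.Z, and the series asks how its loss affects transcription and progress through male meiosis. The tissue is labelled testis and the cell type testis cells, whereas the series' design text names germ cells. How and in which cells Znhit1 was disrupted, which alleles the CTRL animals carry, the strain and the number of animals per library were not given in the sources used here. Per the labels, the libraries are independent biological replicates, and p-values measure only the spread between these libraries.

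In meiosis, crossovers join homologous chromosomes so that they can be parted at the first division. In mouse spermatocytes most crossovers arise from recombination intermediates that a set of proteins protects and matures. The helicase HFM1 and the MSH4-MSH5 heterodimer act on branched DNA intermediates, TEX11 and SHOC1 are relatives of the budding yeast proteins Zip4 and Zip2, and the RING-domain proteins RNF212 and CCNB1IP1 (also HEI10) determine which sites keep MSH4-MSH5. CNTD1, a cyclin-like protein, and MLH3, a subunit of an endonuclease, act when the chosen sites mature during pachytene.

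The estimated counts summed to between 129531714 and 157790457 per library, of which the 9 genes took 0.0334% and 0.0461% in Znhit1_KO and 0.0575% and 0.0628% in CTRL. Znhit1 itself stood at 3.15 and 2.14 CPM (counts scaled by library total and TMM factors) in Znhit1_KO, against 17.3 and 31.9 CPM in CTRL, so that both Znhit1_KO libraries lay far below both CTRL libraries. The log2 change of Znhit1 was -3.22 (SE 0.40), with an adjusted p of 0.264 from the quasi-likelihood test of edgeR, which thus did not call it. The authors' deposited table gives -3.23 with a DESeq2 adjusted p of 1.14e-14. Of the exon bases of Znhit1, 28.4% are shared with Plod3 on the opposite strand, and Plod3 stood at 86.0 and 73.2 CPM in Znhit1_KO, against 78.9 and 80.3 CPM in CTRL. None of the markers of testis cell types listed for this comparison was at 0 in any library. In whole testis, fewer cells of a type and less RNA per cell cannot be told apart.

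All 9 crossover formation genes had a negative log2 change, as had 11321 of the 24116 genes tested. Those of Msh5 and Tex11 were positive when libraries were scaled to early prophase genes (described further on). For 7 of the 9 the higher Znhit1_KO library lay below the lower CTRL library, called lower without overlap from here on. That order was found for 21.3% of all genes tested, with 21.8% in the opposite order, which 0 of the 9 showed. The median log2 change of the 9 was -0.72, with a range of -1.74 to -0.30, against a median of 0.031 over all genes tested. The quasi-likelihood test of edgeR called 0 of the 9 at an adjusted p of 0.05 over all genes, as it called 0% of all genes (0 of 24116), and the lowest adjusted p of any of the 9 was 0.264. At an unadjusted p under 0.05 it found 5 of the 9 lower, against 7.75% of all genes. DESeq2, run on the same counts, called the same 5 lower (Ccnb1ip1, Rnf212, Mlh3, Msh4 and Shoc1), against 3.86% of all genes, and limma-voom called 0. The authors' deposited table, whose marked genes reach down to an absolute log2 change of 1.00 and up to an adjusted p of 0.0497, marks Ccnb1ip1 and Rnf212 lower and none of the 9 higher, where 3.22% of its 25236 genes are marked lower. All of these fits use the same 4 libraries. With 2 libraries in each group, the smallest two-sided p that an exact permutation test could give for a single gene is 0.333.

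**Figure D1:**
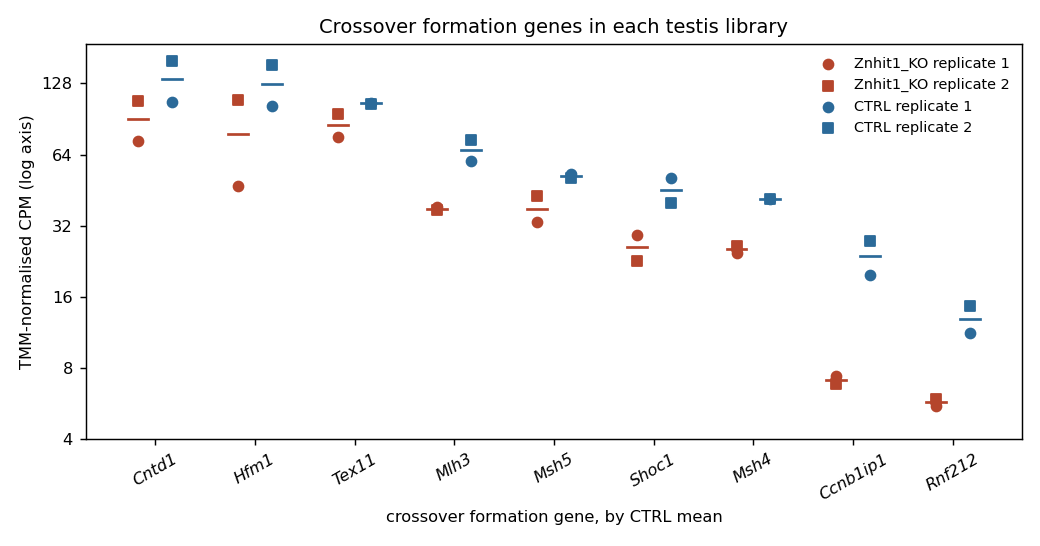
TMM-normalised CPM of the 9 crossover formation genes on a log axis, in each Znhit1_KO and each CTRL library, with a line at each group mean (n = 2 per group). Ccnb1ip1 at 7.39 and 6.84 CPM in Znhit1_KO, against 19.9 and 27.7 CPM in CTRL, shows the widest gap, while the groups overlap for Hfm1 and Cntd1.

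The largest difference was that of Ccnb1ip1 (ENSMUSG00000071470.4, protein-coding, chr14:50789248-50807732, mm10), which encodes the RING-domain protein of the ubiquitin ligase type that removes RNF212 from most recombination sites. It stood at 7.39 and 6.84 CPM in Znhit1_KO, against 19.9 and 27.7 CPM in CTRL. The 2 Znhit1_KO libraries were close to each other and both lay below the lower CTRL library. The means were 7.11 ± 0.391 CPM in Znhit1_KO and 23.8 ± 5.53 CPM in CTRL (SD, n = 2 each), the Znhit1_KO mean being 29.9% of the CTRL mean. The log2 change was -1.74 (SE 0.25), with an edgeR adjusted p of 0.264. In the authors' deposited table its log2 change is -1.75, with adjusted p 1.17e-07. Without CTRL replicate 1 the log2 change was -1.96 and the edgeR adjusted p 0.0138, a fit in which 754 genes were called.

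Rnf212 (ENSMUSG00000055385.12, chr5:108729290-108774982) encodes a RING-domain protein of the SUMO ligase type that marks a minority of sites and stabilises MSH4-MSH5 there. Its level was the lowest of the 9 in CPM, at 5.53 and 5.88 CPM in Znhit1_KO, against 11.2 and 14.6 CPM in CTRL. Again the groups did not overlap, and the Znhit1_KO libraries differed little from each other. The log2 change was -1.18 (SE 0.24, edgeR adjusted p of 0.269). The authors' deposited table gives -1.18 with an adjusted p of 0.00141.

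The promoters of these 2 genes are shown because their transcripts had the largest differences, and those of Hfm1 and Msh5 because they were the ones among the 9 with a match to the motif CNCCTCAG, to which the meiotic entry factors STRA8 and MEIOSIN are known to bind. Sequences are from NCBI RefSeq on GRCm38.p6, the build also called mm10, and run 5′ to 3′ on the gene's strand over 250 bases before and 50 after the annotated start. Capitals mark matches to CNCCTCAG and to the E2F motif TCCCGC, searched on both strands.
Ccnb1ip1 (chr14:50795679-50795978, minus strand): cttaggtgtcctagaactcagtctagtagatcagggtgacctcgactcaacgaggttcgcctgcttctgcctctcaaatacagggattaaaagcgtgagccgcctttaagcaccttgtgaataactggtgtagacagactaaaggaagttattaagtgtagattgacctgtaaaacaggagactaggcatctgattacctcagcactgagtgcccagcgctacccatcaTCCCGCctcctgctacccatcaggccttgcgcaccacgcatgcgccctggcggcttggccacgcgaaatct
Rnf212 (chr5:108774978-108775277, minus strand): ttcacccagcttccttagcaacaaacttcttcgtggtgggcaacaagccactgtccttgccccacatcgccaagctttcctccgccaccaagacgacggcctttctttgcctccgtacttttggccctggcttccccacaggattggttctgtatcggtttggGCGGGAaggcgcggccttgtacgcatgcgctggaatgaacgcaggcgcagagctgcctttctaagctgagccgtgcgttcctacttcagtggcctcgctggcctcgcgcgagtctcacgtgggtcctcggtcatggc
Hfm1 (chr5:106925841-106926140, minus strand): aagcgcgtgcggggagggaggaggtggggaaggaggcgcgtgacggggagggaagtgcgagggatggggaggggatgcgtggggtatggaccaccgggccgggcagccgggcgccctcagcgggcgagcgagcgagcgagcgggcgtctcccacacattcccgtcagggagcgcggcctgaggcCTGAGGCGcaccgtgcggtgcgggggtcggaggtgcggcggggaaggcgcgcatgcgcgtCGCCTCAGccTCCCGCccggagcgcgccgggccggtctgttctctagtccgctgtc
Msh5 (chr17:35046573-35046872, minus strand): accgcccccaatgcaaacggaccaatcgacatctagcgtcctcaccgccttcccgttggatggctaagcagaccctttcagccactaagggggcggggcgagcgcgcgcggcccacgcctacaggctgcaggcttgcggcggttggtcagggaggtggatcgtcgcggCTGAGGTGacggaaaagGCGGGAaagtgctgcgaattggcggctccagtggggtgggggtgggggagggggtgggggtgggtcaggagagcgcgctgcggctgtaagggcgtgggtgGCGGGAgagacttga

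The RefSeq promoter table held 7 of the 9 genes. Its whole windows of Ccnb1ip1, Msh4 and Hfm1 lie inside the longer genes that GENCODE M21 annotates. The RefSeq starts of Msh5 and Cntd1 also lie inside the GENCODE genes. Windows at the outer GENCODE starts were not searched, so the matches and ratios below hold for the RefSeq starts only. CNCCTCAG occurred in 2 of the 7 genes, against 7.94% of all 32851 promoters of the table, with 2 matches in Hfm1 and 1 in Msh5. The motif TCCCGC occurred in 4 of the 7 (Ccnb1ip1, Rnf212, Hfm1 and Msh5), against 20.0% of all promoters. The MYB core AACNG, not in capitals above, occurred in all 7, against 80.3% of all promoters, and no 2 matches within a promoter overlapped. The ratio of observed to expected CpG dinucleotides was 0.646 in Ccnb1ip1, 0.833 in Rnf212, 1.03 in Hfm1 and 0.855 in Msh5, against a median of 0.384 over all promoters. The lowest of the 7 was Msh4 with 0.436, so each was above that median. A ratio at least that of Msh4 was found for 46.1% of all promoters. Hfm1 and Msh5, the 2 with CNCCTCAG, had log2 changes of -0.72 (SE 0.43) and -0.46 (SE 0.19). The 5 in whose windows these letters do not occur had -1.74 (Ccnb1ip1), -1.18 (Rnf212), -0.83 (Mlh3), -0.71 (Msh4) and -0.56 (Cntd1), a range that holds the value of Hfm1. These matches are descriptions of the letters, and binding was not measured.

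Msh4 and Msh5 encode the partners of one heterodimer, and both were lower without overlap. Msh4 (ENSMUSG00000005493.15, chr3:153857149-153906138) stood at 24.6 and 26.3 CPM in Znhit1_KO, against 41.5 and 41.5 CPM in CTRL. Replicates of both groups lay close together and the groups were well apart. The log2 change of Msh4 was -0.71 (SE 0.16, edgeR adjusted p of 0.30), and the authors' deposited table gives an adjusted p of 0.042 and no mark. Msh5 (ENSMUSG00000007035.15, chr17:35028605-35046745) stood at 33.0 and 42.6 CPM in Znhit1_KO, against 52.8 and 51.1 CPM in CTRL. The groups did not overlap, but Znhit1_KO replicate 2 was nearer to the CTRL libraries than replicate 1 was. Its log2 change was -0.46 (SE 0.19, edgeR adjusted p of 0.481), with -0.32 without Znhit1_KO replicate 1 and -0.69 without Znhit1_KO replicate 2.

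The genes related to yeast Zip2 and Zip4 were also lower without overlap. Shoc1 (ENSMUSG00000038598.9, chr4:59043753-59138983) stood at 29.2 and 22.6 CPM in Znhit1_KO, against 51.0 and 39.9 CPM in CTRL, with no overlap. Its log2 change was -0.81 (SE 0.22, edgeR adjusted p of 0.326), and the authors' deposited table gives an adjusted p of 0.0607. Tex11 (ENSMUSG00000009670.11, chrX:100838648-101059667), the one X-linked gene of the 9, stood at 76.0 and 95.4 CPM in Znhit1_KO, against 106 and 105 CPM in CTRL. The CTRL libraries were nearly equal, and Znhit1_KO replicate 2 was close below them. Its log2 change of -0.30 (SE 0.17, edgeR adjusted p of 0.592) was the smallest of the 9 with all 4 libraries, and the Znhit1_KO mean was 81.3% of the CTRL mean. It was -0.17 without Znhit1_KO replicate 1 and -0.51 without Znhit1_KO replicate 2, and without CTRL replicate 2 the value of Cntd1 (-0.25) was smaller than that of Tex11 (-0.30).

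Hfm1 (ENSMUSG00000043410.16, chr5:106840192-106926321), the mouse relative of the yeast helicase Mer3, stood at 46.9 and 109 CPM in Znhit1_KO, against 103 and 153 CPM in CTRL. Znhit1_KO replicate 1 was low, whereas Znhit1_KO replicate 2 lay between the CTRL libraries, so the groups overlapped. The log2 change was -0.72 (SE 0.43, edgeR adjusted p of 0.609). It was -0.26 without Znhit1_KO replicate 1, -1.48 without Znhit1_KO replicate 2, -0.40 without CTRL replicate 2 and -0.98 without CTRL replicate 1, so that single libraries set its size.

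Of the genes that act late, at the maturation of crossover sites, Mlh3 (ENSMUSG00000021245.15, chr12:85234520-85270599), which encodes that endonuclease subunit, stood at 38.3 and 37.2 CPM in Znhit1_KO, against 60.0 and 73.9 CPM in CTRL. The Znhit1_KO libraries were nearly equal and lay apart from both CTRL libraries. The log2 change was -0.83 (SE 0.17, edgeR adjusted p of 0.269), and the authors' deposited table gives an adjusted p of 0.0163. Cntd1 (ENSMUSG00000078653.4, chr11:101279012-101296317) stood at 73.0 and 108 CPM in Znhit1_KO, against 107 and 159 CPM in CTRL. Znhit1_KO replicate 2 and CTRL replicate 1 were nearly equal. The log2 change was -0.56 (SE 0.28, edgeR adjusted p of 0.548), and it was -0.25 without CTRL replicate 2, -0.33 without Znhit1_KO replicate 1, -0.82 without CTRL replicate 1 and -0.90 without Znhit1_KO replicate 2. The value of Cntd1 is uncertain for a further reason: 72.1% of its exon bases in GENCODE M21 are shared with genes on the opposite strand, 3104 bases of them with Becn1. Whether the libraries kept strand was not given in the sources used here. Without strand, a read that lies within the exon bases they share may come from Cntd1 or from Becn1. Becn1, an autophagy gene active in most cell types, stood at 130 and 147 CPM in Znhit1_KO, against 165 and 195 CPM in CTRL. Of the other 8 genes, Ccnb1ip1 shares 12.4% of its exon bases and Msh4 1.81%, in each case with a small RNA gene whose mean count was at most 1, and the remaining 6 share none.

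**Figure D2:**
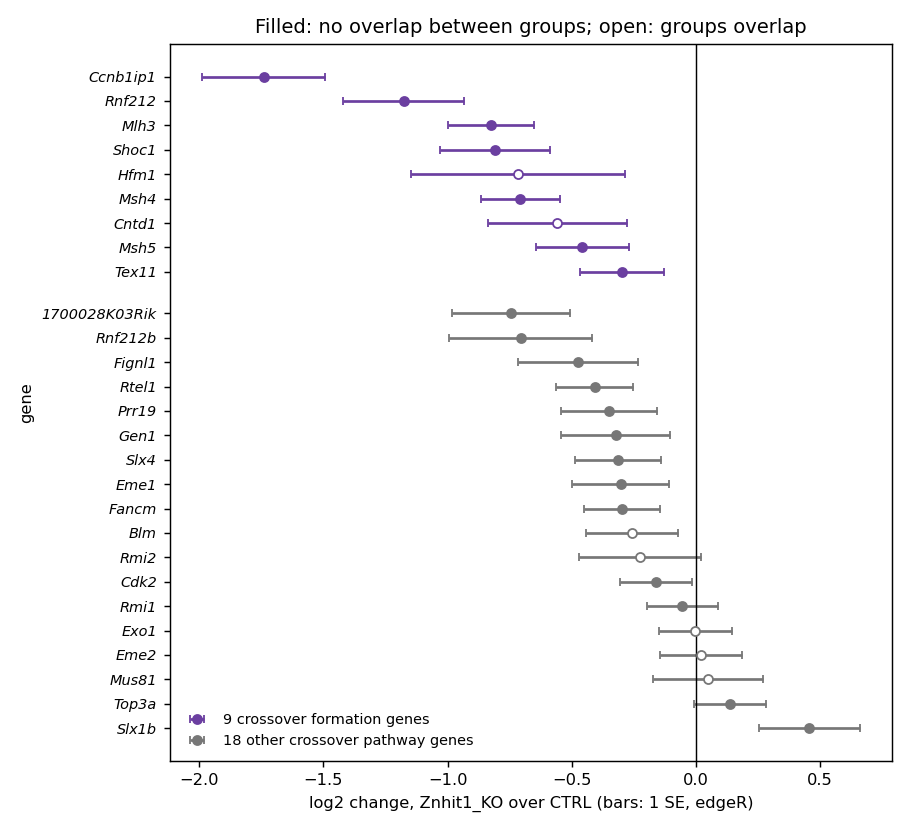
Log2 change (TMM scaling) of Znhit1_KO over CTRL with 1 SE from edgeR for the 9 crossover formation genes (above) and 18 other crossover pathway genes (below), where filled points mark genes whose groups do not overlap. All 9 lie left of 0, between -1.74 and -0.30, and the other genes lie between -0.74 and 0.46.

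Levels were compared between genes on the authors' TPM values, which are normalised to transcript length. In TPM, the Znhit1_KO values of all 9 genes lay below the CTRL values without overlap, an order found for 20.0% of the 25236 genes of the deposited comparison table. The margin was small for Hfm1 (25.7 and 57.1 TPM in Znhit1_KO, against 58.0 and 77.0 TPM in CTRL), for Cntd1 (79.8 and 117 TPM in Znhit1_KO, against 121 and 157 TPM in CTRL) and for Tex11 (60.8 and 74.4 TPM in Znhit1_KO, against 86.0 and 74.6 TPM in CTRL). In Znhit1_KO the highest level was that of Cntd1 with 98.4 ± 26.3 TPM (SD, n = 2, as for the levels that follow), subject to its overlap with Becn1. Tex11 (67.6 ± 9.56 TPM), Hfm1 (41.4 ± 22.2 TPM) and Msh5 (37.8 ± 5.11 TPM) came next, and of these neighbours Hfm1 and Msh5 overlapped. Msh4 (20.3 ± 0.474 TPM), Mlh3 (18.4 ± 0.743 TPM), Shoc1 (18.2 ± 3.55 TPM), Rnf212 (15.3 ± 0.0789 TPM) and Ccnb1ip1 (12.0 ± 0.837 TPM) followed, of which the neighbours Mlh3 and Shoc1 overlapped. In CTRL the same 4 genes led in the same order, with Cntd1 at 139 ± 25.3, Tex11 at 80.3 ± 8.05, Hfm1 at 67.5 ± 13.4 and Msh5 at 50.8 ± 7.89 TPM, and here Tex11 and Hfm1 overlapped. Ccnb1ip1 (38.7 ± 5.30 TPM), Rnf212 (33.6 ± 2.40 TPM), Msh4 (32.1 ± 3.66 TPM), Mlh3 (31.7 ± 0.915 TPM) and Shoc1 (29.7 ± 8.14 TPM) followed in CTRL, each overlapping its neighbour in that order. Ccnb1ip1 thus had rank 9 in Znhit1_KO, against rank 5 in CTRL, and Rnf212 rank 8 in Znhit1_KO, against rank 6 in CTRL. Both libraries of Ccnb1ip1 lay below all Znhit1_KO values of the other 8 genes.

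Ratios between the transcripts of partner genes in the same library do not depend on how libraries are scaled to each other. The 5 pairs were chosen from known partnerships after the values of single genes had been seen, and they are given with no test. The TPM ratio of Ccnb1ip1 to Rnf212, whose proteins act against each other at recombination sites, was 0.825 and 0.742 in Znhit1_KO, against 1.10 and 1.20 in CTRL. By TPM, Ccnb1ip1 was thus the lower of the pair in both Znhit1_KO libraries and the higher in both CTRL libraries. By counts, which are not normalised to transcript length, it was the higher of the pair in every library. The count ratios were 1.34 and 1.16 in Znhit1_KO, against 1.77 and 1.90 in CTRL. The ratio of Msh4 to Msh5 was 0.583 and 0.497 in Znhit1_KO, against 0.615 and 0.653 in CTRL. In these 2 pairs the groups did not overlap, and the same held for ratios of counts. With 2 libraries in each group, exact permutation gives such a separation, in either direction, a probability of 0.333. The share of all gene pairs that separate was not computed. The ratios of Shoc1 to 1700028K03Rik (the gene of mouse SPO16, the partner of SHOC1), of Cntd1 to Prr19 and of Tex11 to Shoc1 overlapped between the groups.

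**Figure D3:**
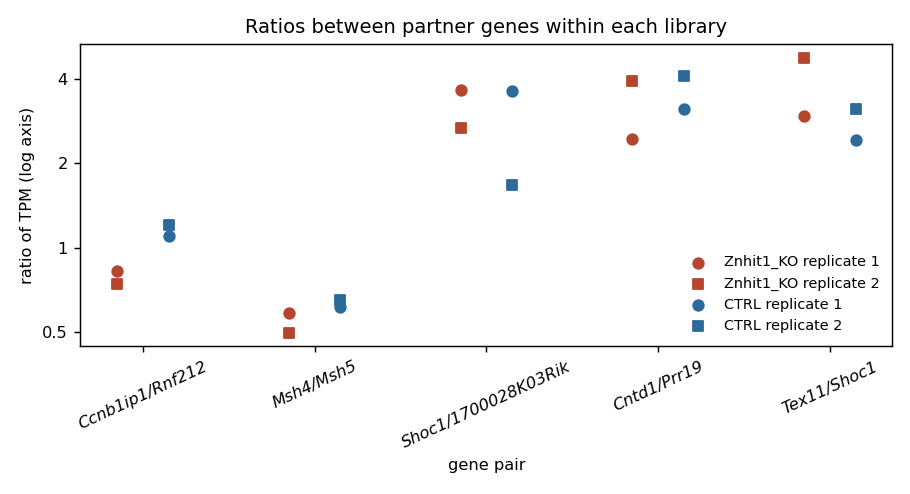
Ratio of the authors' TPM values of 5 gene pairs within each library, on a log axis. The ratios of Ccnb1ip1 to Rnf212 and of Msh4 to Msh5 are lower in Znhit1_KO without overlap (0.742 to 0.825 against 1.10 to 1.20 for the first pair), and the other 3 overlap.

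The other crossover pathway genes, a list of 18 that holds partners of the 9, resolvases and the BLM dissolution complex, had a median log2 change of -0.28 with TMM scaling and of 0.21 with early prophase scaling. With TMM scaling 14 of the 18 were negative, against 11321 of all 24116 genes tested. Of the 18, 11 were lower without overlap (21.3% of all genes) and 2 higher without overlap (21.8% of all genes). EdgeR called 0 of the 18 over all genes, as it called 0% of all genes. At an unadjusted p under 0.05 it found 2 lower and 0 higher, where 7.75% of all genes were lower. The authors' deposited table marks 0 of the 18, where 3.22% of its genes are marked lower. The lowest values were those of 1700028K03Rik (-0.74, SE 0.24) and Rnf212b (-0.71, SE 0.29), a relative of Rnf212. 1700028K03Rik stood at 5.99 and 6.73 CPM in Znhit1_KO, against 9.61 and 11.7 CPM in CTRL, but 37.0% of its exon bases are shared with other genes. Rnf212b stood at 6.79 and 9.17 CPM in Znhit1_KO, against 15.2 and 10.8 CPM in CTRL. Prr19 (-0.35, SE 0.19), whose protein works with CNTD1, had an intermediate value. So did Rtel1 (-0.41, SE 0.16) and Fignl1 (-0.48, SE 0.24), whose relatives limit crossovers in Caenorhabditis elegans and in Arabidopsis. Cdk2, the kinase found at crossover sites, had a log2 change of -0.16 (SE 0.14), and the nuclease gene Exo1 one of -0.0031 (SE 0.15). Among the resolvase genes, the log2 change was 0.048 for Mus81 (SE 0.22), -0.30 for Eme1 (SE 0.20), -0.32 for Gen1 (SE 0.22), -0.31 for Slx4 (SE 0.17) and 0.46 for Slx1b (SE 0.20). Top3a (0.14, SE 0.15), Rmi1 (-0.055, SE 0.14), Rmi2 (-0.22, SE 0.25), Blm (-0.26, SE 0.19), Fancm (-0.30, SE 0.15) and Eme2 (0.020, SE 0.17, with 54.2% of its exon bases shared with other genes) completed the list. Shared exon bases also make up 16.4% of those of Slx1b, 10.7% of Eme1, 10.6% of Rnf212b and 7.07% of Fancm. The genes for which no share is given have less. The difference between this list and the 9 genes was not tested.

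The 9 genes are transcribed in meiotic cells, and most markers of those cells were lower too. With TMM scaling, 11321 of all 24116 genes tested were negative, 21.3% were lower without overlap and 21.8% were higher. The counts below stand beside these values. Of 20 genes of leptotene and zygotene spermatocytes, 18 were negative, 11 were lower without overlap and none was higher without overlap, with a median of -0.45. Their summed level was 2545 and 3247 CPM in Znhit1_KO, against 3650 and 4426 CPM in CTRL. Stag3, a meiotic cohesin gene, stood at 379 and 474 CPM in Znhit1_KO, against 476 and 614 CPM in CTRL, and Sycp2, of the synaptonemal complex, at 324 and 407 CPM in Znhit1_KO, against 554 and 649 CPM in CTRL. Sycp1 and Tex15, the other two of the 4 most abundant, overlapped between the groups. Of 15 pachytene genes, 14 were lower without overlap, with a median of -1.91. Piwil1, of the piRNA pathway, stood at 132 and 246 CPM in Znhit1_KO, against 346 and 774 CPM in CTRL. The 15 pachytene genes summed to 798 and 1158 CPM in Znhit1_KO, against 1504 and 3010 CPM in CTRL, the highest value being that of CTRL replicate 2. In the opposite direction, 12 of 14 Sertoli cell markers were higher without overlap, with a median of 0.46 and summed levels of 8375 and 7179 CPM in Znhit1_KO, against 5916 and 6262 CPM in CTRL. Of 12 spermatogonial genes 1 was lower and 1 higher without overlap, with a median of 0.016. Leydig cell, macrophage and peritubular myoid markers had medians of 0.39 (8 genes), 0.68 (8 genes) and -0.0026 (5 genes), with 5, 3 and 0 genes higher without overlap. The spermatogonial genes summed to 989 and 1020 CPM in Znhit1_KO, against 942 and 992 CPM in CTRL, and the Leydig cell markers to 467 and 458 CPM in Znhit1_KO, against 361 and 344 CPM in CTRL. Macrophage markers summed to 60.7 and 87.0 CPM in Znhit1_KO, against 52.3 and 63.7 CPM in CTRL, and myoid markers to 807 and 640 CPM in Znhit1_KO, against 717 and 763 CPM in CTRL. The part of the cell types in the lower levels of the 9 genes was not tested.

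**Figure D4:**
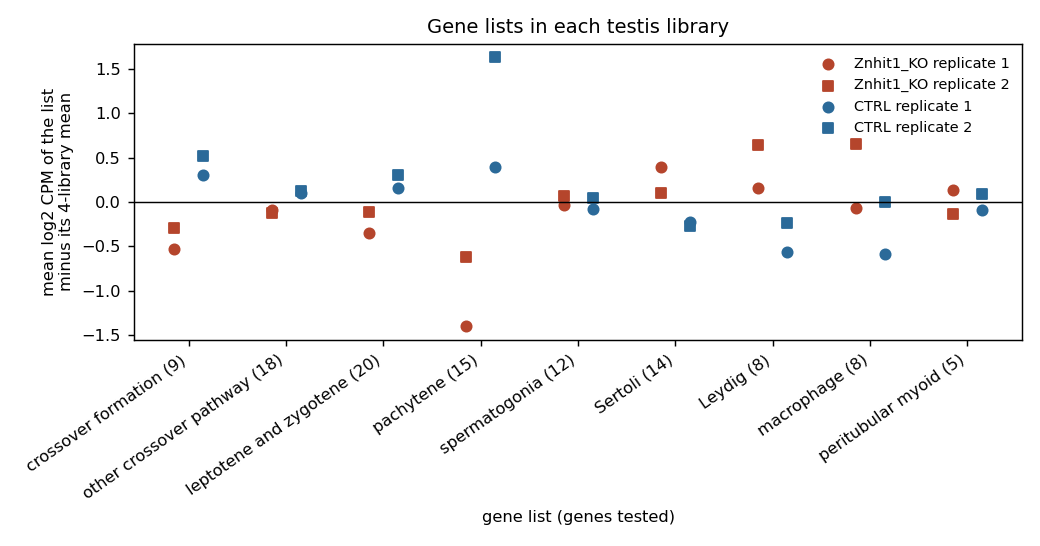
Mean log2 CPM of each gene list in each library, relative to the list's mean over all 4 libraries. The 9 crossover formation genes stand at -0.53 and -0.29 in Znhit1_KO and at 0.30 and 0.51 in CTRL, while the 20 leptotene and zygotene genes stand at -0.35 and -0.11 in Znhit1_KO and at 0.16 and 0.30 in CTRL.

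When the libraries were scaled to the summed level of the leptotene and zygotene genes instead of with TMM factors, the median log2 change of the 9 was -0.27, against 0.52 over all genes tested. Per 1000 CPM of these early prophase genes, Ccnb1ip1 stood at 2.90 and 2.11 CPM in Znhit1_KO, against 5.44 and 6.25 CPM in CTRL. Rnf212 stood at 2.17 and 1.81 CPM in Znhit1_KO, against 3.08 and 3.29 CPM in CTRL, and Mlh3 at 15.1 and 11.4 CPM in Znhit1_KO, against 16.4 and 16.7 CPM in CTRL. These 3 remained lower without overlap, an order found for 8.19% of all genes under this scaling, with log2 changes of -1.22 (SE 0.29), -0.68 (SE 0.29) and -0.32 (SE 0.23). Msh4 (-0.23, SE 0.24), Hfm1 (-0.27, SE 0.32), Shoc1 (-0.32, SE 0.34), Cntd1 (-0.078, SE 0.22) and Msh5 (0.0050, SE 0.23) overlapped between the groups. Msh5 and Tex11 changed sign, and Tex11 had 0.17 (SE 0.21) and was higher without overlap, as were 51.0% of all genes under this scaling, at 29.9 and 29.4 CPM per 1000 in Znhit1_KO, against 28.9 and 23.8 CPM per 1000 in CTRL. None of the 9 passed edgeR's test over all genes under this scaling, where the lowest adjusted p among them was 0.212, that of Ccnb1ip1, and 1 of the 9 was lower at an unadjusted p under 0.05, against 3.54% of all genes under this scaling. With Sertoli marker scaling the median of the 9 was -1.05 and Ccnb1ip1 was the 1 of the 9 that passed (log2 change -2.08, edgeR adjusted p of 0.0466), where 0.390% of all genes were called lower. Libraries were not scaled to the pachytene genes, whose median with TMM scaling (-1.91) lay below the value of each of the 9. Whether any of the 9 would stay lower without overlap under such a scaling was not tested.

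**Figure D5:**
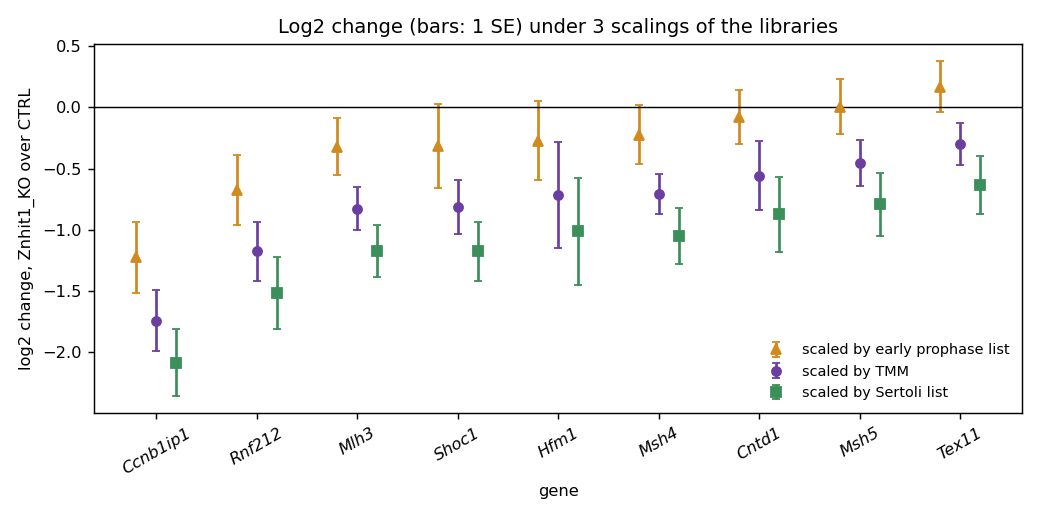
Log2 change of Znhit1_KO over CTRL with 1 SE from edgeR for the 9 genes, with libraries scaled by the early prophase list, by TMM and by the Sertoli list. Ccnb1ip1 is the lowest under each of the 3 scalings (-1.22, -1.74 and -2.08), and Tex11 crosses 0 with the early prophase list (0.17).

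The profile of each gene over the 4 libraries, as log2 CPM centred on its own mean, was compared with that of the other 8. Msh5 and Tex11 were nearest to each other, with a mean absolute difference of 0.081 on the log2 scale over 4 libraries, and Msh4 and Mlh3 were nearest to each other at 0.11. Ccnb1ip1 and Tex11 were farthest apart, at 0.71. Among 11366 other genes with a mean of at least 5 CPM, 81 lay within 0.1 of the mean profile of the 9. The 5 nearest were Smc1b, of the meiotic cohesin complex, Lekr1, Kntc1, a kinetochore gene, Ccdc172 and Rec114, which acts in double-strand break formation, with differences of 0.016 to 0.039. Smc1b stood at 188 and 214 CPM in Znhit1_KO, against 324 and 379 CPM in CTRL, and it and Rec114 also belong to the early prophase list.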

How the data were processed

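RNA-seq of 2 Znhit1_KO and 2 CTRL testis libraries was used, grouped by title. The submitters' processing notes name DESeq2 1.38.3, StringTie 2.2.1, HISAT2 2.2.1, cutadapt 2.5 and mm10. How these were run, the annotation and the strandedness were not given in the sources used here. In the deposited count table the authors give whole numbers with sums of 129531714 to 157790457 per library, well above the minimum read number in the protocol. As StringTie, whose counts derive from coverage, is among the tools the authors list, the deposited values were treated as estimated counts (already whole, so not rounded), and counting precision cannot be read from them. The authors' deposited comparison table gives TPM per library (normalised to transcript length and library total), a mean normalised signal, log2 fold changes with standard errors, Wald scores and adjusted p-values. Columns were matched to titles by group initial and replicate number. Of 55335 gene identifiers, 55154 were found in GENCODE M21, which gave positions and exon overlaps.

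Counts were fitted over all genes with the quasi-likelihood test of edgeR 4.0.16 (R 4.3.3; TMM, filterByExpr, genotype only, Benjamini-Hochberg at 0.05), and p-values were adjusted over all 24116 genes. Standard errors came from the F statistic; centred log2 CPM used a prior count of 2. DESeq2 1.42.0, limma-voom 3.58.1, 4 other scalings, no filter, a replicate block and leaving out each library were alternatives. The function was tested on simulated data. The 9 genes and the lists were chosen with earlier results of these data known. Named genes were the 9, Znhit1, the 18 other crossover genes (a further listed gene is not reported here), marker genes among the 4 most abundant of their list, and the 5 genes nearest in profile; Becn1 and Plod3, which share exon bases, were added after values were seen. Replicates had equal counts for 3.00% (Znhit1_KO) and 2.89% (CTRL) of detected genes and were kept as separate samples. Protein features were not analysed here.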

Additional observations from a re-analysis of the deposited data

How the results depend on the processing

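The median log2 change of the 9 genes was negative under all 12 alternatives. The values of single genes were negative too, except that Msh5 (0.0050) and Tex11 (0.17) changed sign with early prophase list scaling. That scaling moved the median over all genes tested to 0.52, the median of the 9 to -0.27 and that of the other crossover genes to 0.21, and it left 3 of the 9 lower without overlap, an order that 8.19% of all genes showed under it. Sertoli list scaling moved the median over all genes to -0.32, that of the 9 to -1.05 and that of the other crossover genes to -0.62, and called 98 genes, 1 of them among the 9. Total count scaling gave a median of -0.25 for the other crossover genes. DESeq2 called 1041 genes and 5 of the 9, where it called 3.86% of all genes lower, whereas limma-voom called 0 of both. With the authors' TPM, an alternative chosen after seeing the data, 9 of the 9 were lower without overlap, against 20.0% of all genes.

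With the replicate number as a block, edgeR called 2737 of 24116 genes, 1923 of them lower, and 7 of the 9 (all but Msh5 and Tex11). Same-numbered libraries deviated together from their group means (r = 0.421 across genes, which are not independent replicates). With 2 numbers and no label that ties them to a litter or day, whether these libraries share more than a number cannot be told. Leaving out 1 library in turn gave between 0 and 754 called genes (754 without CTRL replicate 1), between 0 and 1 of the 9 called (Ccnb1ip1), and a median of the other crossover genes between -0.33 and -0.22. Such fits leave 1 library in a group, assumed to vary like the other group. The lowest estimated count of any of the 9 in a library was 816 (Rnf212), and what these depths add to the error was not tested.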
